A study of Mus musculus with 6 samples.

Results

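In primary cultures of mouse embryonic cardiomyocytes, 4 protein-coding genes that were almost without reads after negative siRNA gained a low level after DNMT1 siRNA in every culture. They were Cyp1a1, Slc1a7, Hist4h4 and Pla2g4e. The gain was smallest for Pla2g4e, with 3, 3 and 2 reads after negative siRNA and 5, 6 and 5 reads after DNMT1 siRNA, where total gene reads were fewer. Their level was measured in CPM, the reads of a gene scaled to the total of all gene reads of the sample (counts per 1000000). A gene was taken as silent when it had at most 0.1 CPM in all 3 negative siRNA cultures, and as gained when it also had at least 0.3 CPM in all 3 DNMT1 siRNA cultures. The large olfactory and vomeronasal receptor families (Olfr and Vmn symbols) were left out. Of 20204 protein-coding genes in the files, 4856 were silent, and 4 of these, or 0.0824%, gained expression. Because both limits were set on the measured levels, the difference between the siRNAs in these 4 genes is a description and not a test.

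The cells were ventricular cardiomyocytes of CD-1 mouse embryos at embryonic day 13.5, with the ventricles of each litter pooled, enriched by preplating and by magnetic sorting for VCAM1, a surface protein of embryonic cardiomyocytes. After 48 h in culture they received 12 nM of a pool of siRNAs against Dnmt1 or 12 nM of a negative control siRNA, so both groups went through transfection, and poly(A) RNA was sequenced 72 h later, with 3 samples per group. The sample titles and the series design name the siRNA target as DNMT1, whereas a treatment tag on the same samples names DNMT3a, and the titles were followed. The labels do not say whether the samples came from separate cell isolations, so the p values measure the spread between these samples, which may be technical. Dnmt1, the enzyme that copies DNA methylation onto the new strand at cell division, was at 165, 127 and 133 CPM after negative siRNA and at 35.6, 35.7 and 29.6 CPM after DNMT1 siRNA, or 23.8% of the negative siRNA mean (log2 fold change −2.03, SE 0.11, adjusted p = 0.000192, edgeR quasi-likelihood test). Dnmt3a differed by 0.24 on the log2 scale (adjusted p = 0.0919 in edgeR) and Dnmt3b by 0.21 (adjusted p = 0.444 in edgeR), and neither passed the test.

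The gene reads numbered 27852412 to 35896018 per negative siRNA sample and 13739561 to 16186310 per DNMT1 siRNA sample. The lower limit of 0.1 CPM therefore stood for 2.79 to 3.59 reads and the upper limit of 0.3 CPM for 4.12 to 4.86 reads. Of the markers of the labelled cell type, 8 cardiomyocyte genes were measured, and their summed level was 2175 to 2687 CPM after negative siRNA and 4632 to 5855 CPM after DNMT1 siRNA, with 6 of them called up. The summed level of the fibroblast and smooth muscle markers was 25903 to 38617 CPM and 19074 to 20104 CPM, with 2 of 7 called down. RNA of these marker genes was thus present in both groups, which does not by itself show which cells made it. The paper reports, from earlier flow cytometry, that the large majority of the sorted cells were cardiomyocytes. Over all genes tested, 4.26% were called up and 2.23% down. Of 6 endothelial markers 2 were called up by edgeR and 4 by DESeq2 (summed level 56.2 to 93.5 and 86.0 to 103 CPM). Of 6 macrophage markers 0 were called by edgeR and 4 were called down by DESeq2 (10.6 to 27.9 and 8.83 to 13.2 CPM). An unadjusted p under 0.05 in edgeR was seen for 6 endothelial and 4 macrophage markers, beside 29.2% of all genes tested. In bulk RNA, fewer cells of a type and less RNA per cell cannot be told apart, and the part of this shift in the gained levels was not tested.

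In mammalian cells, methylated cytosines sit mostly at CpG sites, where a cytosine is followed by a guanine. Many broadly expressed genes have promoters rich in unmethylated CpG, whereas tissue-restricted genes more often have promoters poor in CpG. Stable silencing of some genes, germline genes among them, is known to need promoter methylation that DNMT1 maintains. DNA methylation of the 4 genes was not measured in the files used here.

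The promoters of the 4 genes are shown because their CpG content is a property that the choice of genes did not use. The sequences are from RefSeq on GRCm38.p6, read 5′ to 3′ on the strand of the gene, with each CpG in capitals. They end at the base before the start site of the RefSeq transcript, except for Slc1a7, which ends before the earlier start of the gene in the annotation used for lengths. Cyp1a1 lies at chr9:57697363-57697612 on the plus strand, within the longer gene span of the annotation, Slc1a7 at chr4:107968156-107968331 on the plus strand, Hist4h4 (RefSeq symbol H4f16) at chr6:136804432-136804681 on the minus strand and Pla2g4e at chr2:120245336-120245585 on the minus strand.
Cyp1a1: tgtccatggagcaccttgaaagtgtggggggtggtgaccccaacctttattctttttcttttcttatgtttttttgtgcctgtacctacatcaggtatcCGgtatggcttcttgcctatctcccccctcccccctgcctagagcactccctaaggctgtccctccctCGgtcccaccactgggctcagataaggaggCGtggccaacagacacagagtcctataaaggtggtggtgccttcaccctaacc
Slc1a7: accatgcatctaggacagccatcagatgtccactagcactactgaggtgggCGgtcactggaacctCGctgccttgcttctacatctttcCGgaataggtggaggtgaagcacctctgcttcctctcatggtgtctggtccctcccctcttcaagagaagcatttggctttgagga
Hist4h4: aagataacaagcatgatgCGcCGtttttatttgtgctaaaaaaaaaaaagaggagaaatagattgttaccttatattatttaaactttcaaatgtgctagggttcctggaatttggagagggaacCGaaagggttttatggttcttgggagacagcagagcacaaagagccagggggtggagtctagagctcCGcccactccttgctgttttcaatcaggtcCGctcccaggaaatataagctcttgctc
Pla2g4e: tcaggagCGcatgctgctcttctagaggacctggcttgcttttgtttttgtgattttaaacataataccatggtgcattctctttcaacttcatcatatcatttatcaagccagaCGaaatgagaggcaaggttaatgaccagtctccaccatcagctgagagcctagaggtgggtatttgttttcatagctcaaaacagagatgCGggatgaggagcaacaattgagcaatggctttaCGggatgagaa
In the full RefSeq window of 300 bases (250 before the start site and 50 after it), Cyp1a1 held 4 CpG, Slc1a7 7, Hist4h4 8 and Pla2g4e 7. Observed over expected CpG, the number of CpG relative to what the C and G content of the window would give, was 0.186 for Cyp1a1, 0.308 for Slc1a7, 0.442 for Pla2g4e and 0.601 for Hist4h4. Among the 3465 silent genes with a window, the medians were 3 CpG and a ratio of 0.204, while the 10573 protein-coding genes with enough reads to be tested had medians of 21 CpG and 0.761. All 4 promoters held more CpG than the median silent gene and fewer than the median tested gene, while the ratio of Cyp1a1 was below the median of silent genes. No test was run on these values. The core letters of the element bound by the aryl hydrocarbon receptor, GCGTG, were searched on both strands and were found 1 time in the window of Cyp1a1, as GGCGTGG near the end of the printed sequence, and not in the other 3 windows. GCGTG was present in 32.5% of all 27025 RefSeq windows and in 18.8% of those of silent genes, and a match does not show binding.

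Cyp1a1 (ENSMUSG00000032315, chr9:57687928-57703824, plus strand, GRCm38) had the highest level of the 4 genes. It encodes a cytochrome P450 that oxidizes polycyclic aromatic hydrocarbons and is a standard target gene of the aryl hydrocarbon receptor. It had 0, 1 and 0 reads after negative siRNA and 10, 8 and 10 reads after DNMT1 siRNA, or 0, 0.0318 and 0 CPM against 0.618, 0.530 and 0.728 CPM. The rule kept the groups apart, and a single negative siRNA sample had any read. The means were 0.0106 ± 0.0183 and 0.625 ± 0.0990 CPM (SD, n = 3), and the ratio of the pooled reads was 59.2 (exact 95% interval 9.79 to 2422, counting error only). This interval, like those of the other genes below, leaves out the spread between samples. The genes were chosen on these same reads, so the ratios and intervals are no test.

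Slc1a7 (ENSMUSG00000008932, chr4:107968332-108013532, plus strand) encodes a glutamate transporter best known from the retina. Its reads were 0, 2 and 1 after negative siRNA and 7, 5 and 5 after DNMT1 siRNA, or 0, 0.0635 and 0.0359 CPM against 0.432, 0.331 and 0.364 CPM. The rule itself placed the highest control level under the lowest level after knockdown. The means were 0.0331 ± 0.0319 and 0.376 ± 0.0516 CPM (SD, n = 3), with a pooled ratio of 12.0 (interval 3.47 to 63.9).

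Hist4h4 (ENSMUSG00000096010, chr6:136801553-136804415, minus strand) encodes histone H4, a core protein of the nucleosome. It had 0, 1 and 1 reads against 6, 5 and 5 reads, or 0, 0.0318 and 0.0359 CPM against 0.371, 0.331 and 0.364 CPM. The single reads of the controls were below every count after knockdown, which the limits required. The means were 0.0226 ± 0.0196 and 0.355 ± 0.0210 CPM (SD, n = 3), with a pooled ratio of 16.9 (interval 3.98 to 152). Genes of histone H4 have nearly identical coding sequences, and reads that align to several places are counted for none of them, so the level of each copy is uncertain. The annotated single exon runs over 2863 bases, while the RefSeq gene is 439 bases long, so the place of the reads within the exon is not known from the counts.

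Pla2g4e (ENSMUSG00000050211, chr2:120166412-120245335, minus strand) encodes cytosolic phospholipase A2 epsilon, an enzyme of membrane lipids that makes N-acyl phosphatidylethanolamines. It was the only one of the 4 genes with reads in all 6 samples. It had 3, 3 and 2 reads against 5, 6 and 5 reads, or 0.0836, 0.0953 and 0.0718 CPM against 0.309, 0.398 and 0.364 CPM. The reads themselves were at most 3 after negative siRNA and at most 6 after DNMT1 siRNA, where the total of gene reads was smaller. The means were 0.0836 ± 0.0117 and 0.357 ± 0.0448 CPM (SD, n = 3), with a pooled ratio of 4.23 (interval 1.71 to 11.4). It overlaps Gm13997, a non-coding gene on the same strand.

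**Figure D1:**
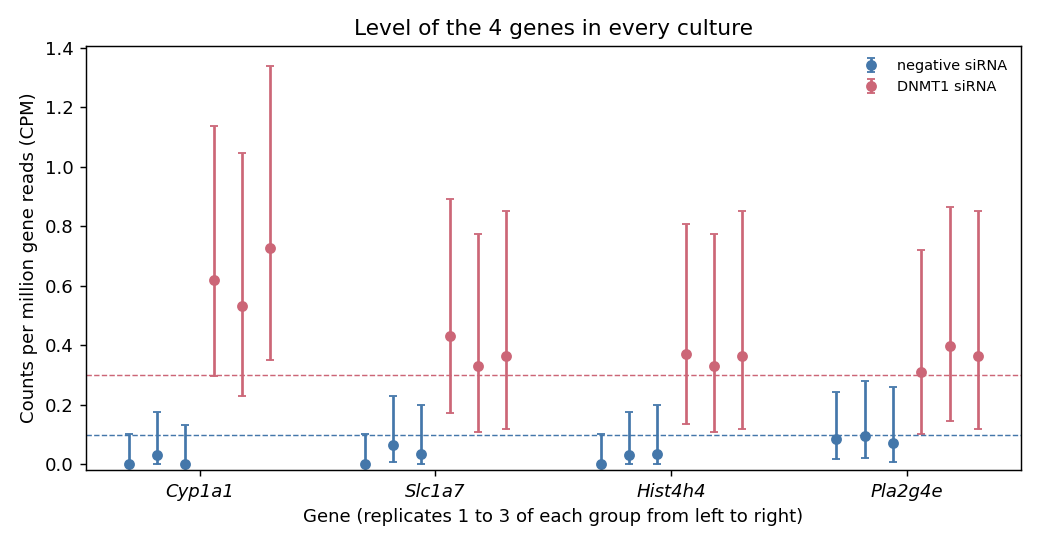
CPM of the 4 genes (y axis) in each of the 6 samples, with the negative siRNA samples in blue and the DNMT1 siRNA samples in red; bars are exact 95% Poisson intervals of the count, and dashed lines mark the limits of 0.1 and 0.3 CPM. All red points lie at or above 0.309 CPM and all blue points at or below 0.0953 CPM, a gap that the rule required. For Cyp1a1 the intervals of the groups are also apart, unlike those of the other 3 genes.

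Scaled to exon length as well as to all gene reads (RPKM), Cyp1a1 was, by the annotated exon lengths, highest after DNMT1 siRNA at 0.224 ± 0.0355 RPKM (SD, n = 3; range 0.190 to 0.261). Hist4h4 followed at 0.124 ± 0.00733 RPKM (range 0.116 to 0.129) and Slc1a7 at 0.112 ± 0.0154 RPKM (range 0.0986 to 0.129), and these ranges overlapped, so their order is not fixed. Pla2g4e was lowest at 0.0513 ± 0.00644 RPKM (range 0.0444 to 0.0571), below each value of the other 3 genes. With the RefSeq length of 439 bases, Hist4h4 would be at 0.809 ± 0.0478 RPKM, above Cyp1a1, so its place in this order depends on the gene model.

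The filter on low counts left 1 of the 4 genes, Cyp1a1, among the 15470 genes tested with edgeR, where 659 genes, or 4.26%, were called up at an adjusted p under 0.05 and a fold change above 1.5. The fitted difference for Cyp1a1 was 5.35 on the log2 scale (SE 0.71, with an adjusted p of 0.00357 in edgeR), which is given as a description because the gene was chosen on the same samples. Slc1a7, Hist4h4 and Pla2g4e were not tested in that fit. With no filter, 3.13% of 31775 genes were called up, and the fit called Cyp1a1, Slc1a7 (3.37, SE 0.97) and Hist4h4 (3.77, SE 1.06) but not Pla2g4e (2.03, SE 0.83, adjusted p = 0.107 in edgeR). Nothing is read from these counts, since the rule used the same contrast.

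The silent genes as a whole set the scale for these levels, and here the DNMT1 siRNA samples differed among themselves. The summed level of all 4856 silent genes was 60.8, 64.7 and 57.4 CPM after negative siRNA, and 54.3, 322 and 313 CPM in DNMT1 siRNA replicates 1, 2 and 3. Replicate 1 was thus below all controls, and replicates 2 and 3 were far above them. The choice of silent genes capped each gene at 0.1 CPM in the controls and set no cap after DNMT1 siRNA. The distance to the controls is therefore partly fixed by that choice, whereas the difference among the DNMT1 siRNA replicates is not. Of the silent genes, 13 reached 0.3 CPM in replicate 1, against 201 in replicate 2 and 143 in replicate 3. In all, 4558 silent genes reached the limit in no DNMT1 siRNA sample, 243 in 1, 51 in 2 and 4 in all 3, while 1932 had no read in any of them. The share of uniquely mapped reads outside annotated exons was 17.5, 14.6 and 17.1% after negative siRNA and 24.4, 31.5 and 32.0% after DNMT1 siRNA. It was highest in replicates 2 and 3, as the silent level was, but in replicate 1 it was above all controls while the silent level was below them. These shares averaged 16.4 ± 1.58% and 29.3 ± 4.23% (SD, n = 3; difference 12.9 percentage points, two-sided exact permutation test, p = 0.1, the smallest that 3 against 3 allows). With reads aligned to several places counted in the denominator, the difference was 4.74 percentage points. The part of these reads in the gained levels was not tested.

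**Figure D2:**
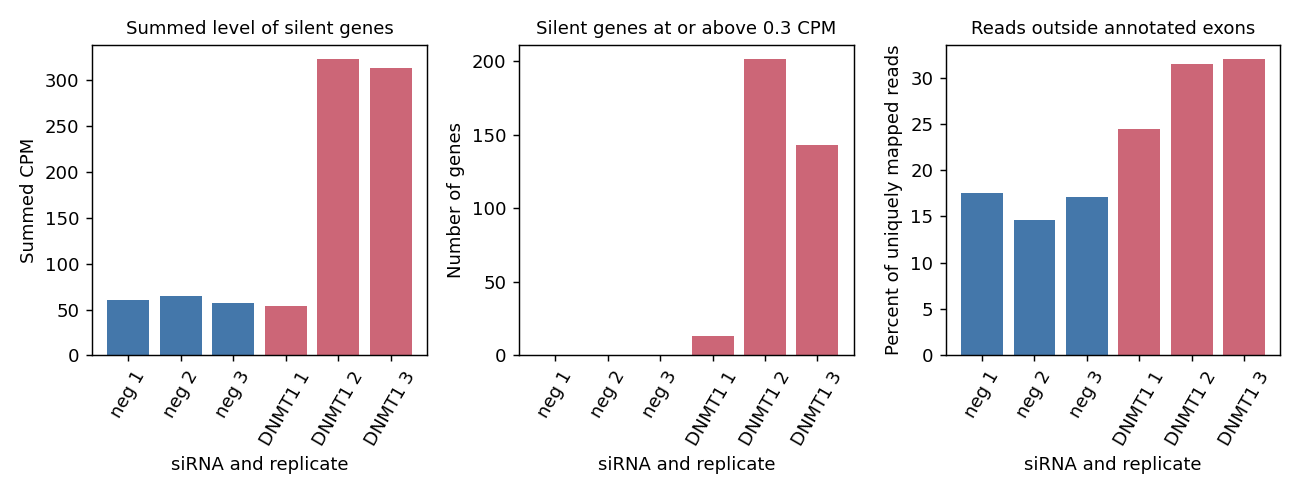
For each of the 6 samples, the bars give the summed CPM of the 4856 silent genes (left), the number of them at or above 0.3 CPM (middle, 0 by the rule after negative siRNA) and the percent of uniquely mapped reads outside annotated exons (right). DNMT1 siRNA replicates 2 and 3 stand apart at 322 and 313 CPM, whereas replicate 1, at 54.3 CPM, is close to the negative siRNA samples. The choice of silent genes held down the summed level of the negative siRNA samples only.

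The reads of the 4 genes can be set beside the mean density of silent genes per exon length, but the rule itself asked for at least 5 reads in every DNMT1 siRNA sample, so a count above that density was fixed by the choice, above all in replicate 1. Cyp1a1, Slc1a7 and Hist4h4 had 10, 7 and 6 reads in replicate 1, where that density would give 0.228, 0.275 and 0.234 reads. In replicates 2 and 3, the reads of Cyp1a1 were 6.17 and 8.74 times those at the mean silent density, those of Slc1a7 3.20 and 3.62 times, and those of Hist4h4 3.75 and 4.25 times. Pla2g4e, the longest of the 4 genes, was at 8.79 times the silent density in replicate 1, but at 1.85 and 1.75 times in replicates 2 and 3, which is no higher than the 2.06, 2.21 and 1.87 times seen after negative siRNA.

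**Figure D3:**
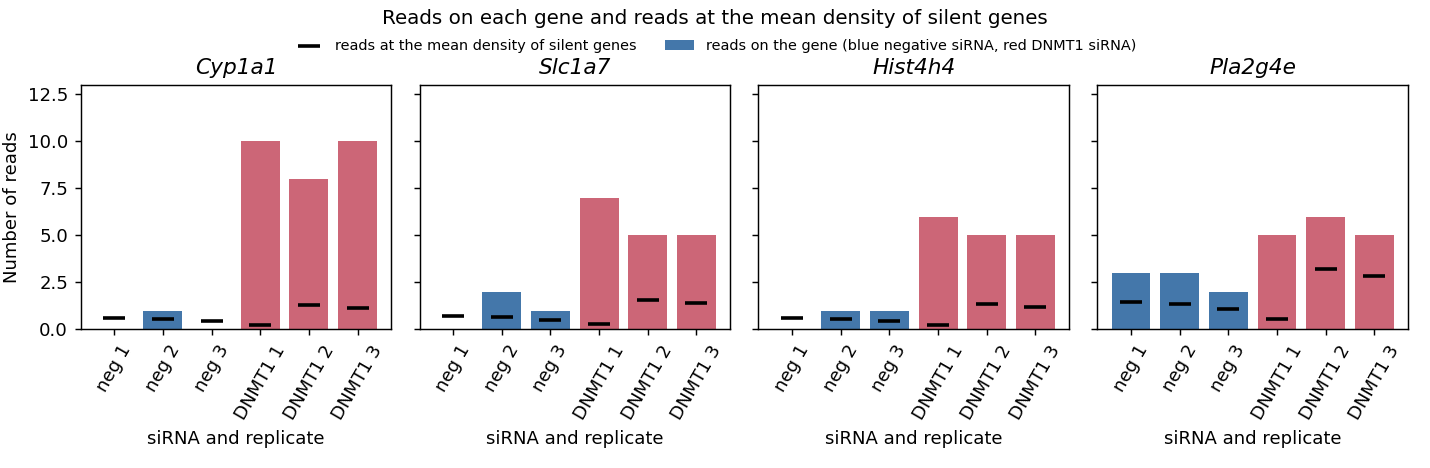
Reads on each of the 4 genes (bars, y axis) in the 6 samples, with black lines at the reads that the mean density of silent genes per exon length would give the gene in that sample. In replicates 2 and 3 the lines for Pla2g4e rise to 3.24 and 2.86 reads beside bars of 6 and 5 reads, and for Cyp1a1 they reach 1.30 and 1.15 reads beside bars of 8 and 10 reads.

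The number of genes named depended on the samples used. The 4 genes met the limits in all 6 samples, so they remained whichever sample was left out, which is no support for them. When DNMT1 siRNA replicate 1 was left out, the rule named 49 genes, of which 4 reached 0.3 CPM in that replicate and 27 had no read there. The other 45 genes had a median of 6305 exon bases against 1621 for all silent genes and 3111.5 for the 4 genes. One of them was Otog, an inner ear protein gene of 10349 exon bases, with 0 reads in replicate 1 against 11 and 14 in replicates 2 and 3, and another was the shorter Gm17535, of 672 exon bases, with 0 against 12 and 11. Leaving out DNMT1 siRNA replicate 2 or 3 named 5 and 9 genes, and leaving out negative siRNA replicates 1, 2 or 3 named 5, 8 and 8 genes. As a wider background, 226 of the 4856 silent genes, or 4.65%, had every DNMT1 siRNA level above every negative siRNA level. Depth enters this share, because 1 read was 0.0618 to 0.0728 CPM after DNMT1 siRNA and 0.0279 to 0.0359 CPM after negative siRNA. A gene with 1 read in every sample would therefore be among them.

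Some genes lay just beyond the limits. Inside the upper limit, the lowest DNMT1 siRNA level was 0.309 CPM for Pla2g4e and 0.331 CPM for both Slc1a7 and Hist4h4. Just outside it was Cd226, a receptor of immune cells, with 0, 2 and 2 reads against 6, 8 and 4 reads and a lowest level of 0.291 CPM. Cacna2d4, a calcium channel subunit gene, had 3, 3 and 2 reads against 4, 5 and 10, and Zfp991, a zinc finger gene, had 2, 3 and 0 against 4, 5 and 3. Beyond the lower limit, Abcc6, a membrane transporter gene, had 4, 2 and 3 reads against 6, 8 and 12, and Ceacam1, an adhesion molecule gene, had 4, 2 and 3 against 5, 5 and 7. Gcgr, the glucagon receptor gene, had the same 4, 2 and 3 reads after negative siRNA but 12, 12 and 11 after DNMT1 siRNA, a difference that the negative siRNA limit alone kept off the list.

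The aryl hydrocarbon receptor is a ligand-activated transcription factor that pairs with ARNT and switches on genes of xenobiotic metabolism, Cyp1a1 first among them. Of 15 genes listed for this pathway, 9 were tested, 2 were called up and 0 down, beside 4.26% called up and 2.23% down among all genes. Ahrr, the repressor of the receptor and itself one of its targets, rose from 1.87, 2.22 and 1.47 CPM to 8.90, 7.49 and 10.4 CPM (log2 fold change 2.30, SE 0.21, adjusted p = 0.0009 in edgeR). Cyp1b1, a P450 of the same family as Cyp1a1, rose from 131, 83.5 and 74.6 CPM to 158, 181 and 170 CPM (0.86, SE 0.18, adjusted p = 0.0215 in edgeR). That call was lost without DNMT1 siRNA replicate 1, 2 or 3 (adjusted p = 0.0679, 0.106 and 0.0921 in edgeR). The receptor gene Ahr itself differed by −0.33 on the log2 scale (adjusted p = 0.041 in edgeR), under the fold limit. Of other targets, Tiparp, an ADP-ribosyltransferase that limits the receptor, was at 0.20 (adjusted p = 0.117 in edgeR) and Nqo1, a quinone reductase, at 0.08 (adjusted p = 0.797 in edgeR). The partner Arnt was at −0.02 and the chaperone gene Hsp90ab1 at −0.19, and neither passed. The median log2 fold change of the 9 genes was 0.08, against −0.01 over all genes tested. Cyp1a2, the neighbour and closest relative of Cyp1a1, was too low to be tested, with 0, 0 and 1 reads against 0, 1 and 3.

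The SLC1 transporter family of Slc1a7 held 6 other genes, of which 5 were tested and 1 was called up, beside 4.26% of all genes tested. Slc1a6, a transporter of cerebellar neurons, rose by 0.71 on the log2 scale (SE 0.13, adjusted p = 0.0127 in edgeR). That call was lost without negative siRNA replicate 1, where the log2 fold change of 0.56 fell under the fold limit, and without DNMT1 siRNA replicate 1, 2 or 3 (adjusted p = 0.0528, 0.0721 and 0.0630 in edgeR). The astrocyte transporter gene Slc1a3 was at 0.42, under the fold limit, and Slc1a2, Slc1a4 and Slc1a5 were at 1.03, −0.12 and −0.45 and did not pass.

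The histone H4 family held 12 genes beside Hist4h4, of which 5 were tested and 2 called up, beside 4.26% of all genes tested. Hist1h4f rose from 0.167, 0.127 and 0.108 CPM to 0.680, 0.862 and 1.09 CPM (log2 fold change 2.68, SE 0.40, adjusted p = 0.0056 in edgeR). Hist1h4d rose by 1.65 (SE 0.38, adjusted p = 0.0303 in edgeR), a call that was lost without negative siRNA replicate 1 or 3 or DNMT1 siRNA replicate 2 or 3 (adjusted p = 0.0604, 0.0654, 0.102 and 0.124 in edgeR). Hist1h4a, Hist2h4 and Hist1h4i were at 2.41, 1.03 and 0.35 and did not pass. Hist1h4f and Hist1h4a had fewer than 0.32 CPM in every negative siRNA sample. These genes, Hist2h4 and Hist1h4d could not have passed the filter on low counts on their negative siRNA samples alone. The genes called up, Hist1h4f and Hist1h4d, were thus partly selected for a higher level after DNMT1 siRNA, so their number is no support for the family. Most histone messages lack a poly(A) tail, and their share in a poly(A) library also depends on how many carry one, which was not tested.

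The family of Pla2g4e held 5 other genes. Of 3 tested, 0 were called by edgeR or DESeq2 and 0 had an unadjusted p under 0.05. Pla2g4a, the widely expressed member that releases arachidonic acid, was at 0.02 on the log2 scale, and Pla2g4b and Pla2g4c were at 0.66 and 0.50. Pla2g4d and Pla2g4f, which share a gene cluster with Pla2g4e, stayed near silent, with 0, 1 and 3 reads against 0, 1 and 2, and 2, 2 and 1 reads against 0, 3 and 1.

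**Figure D4:**
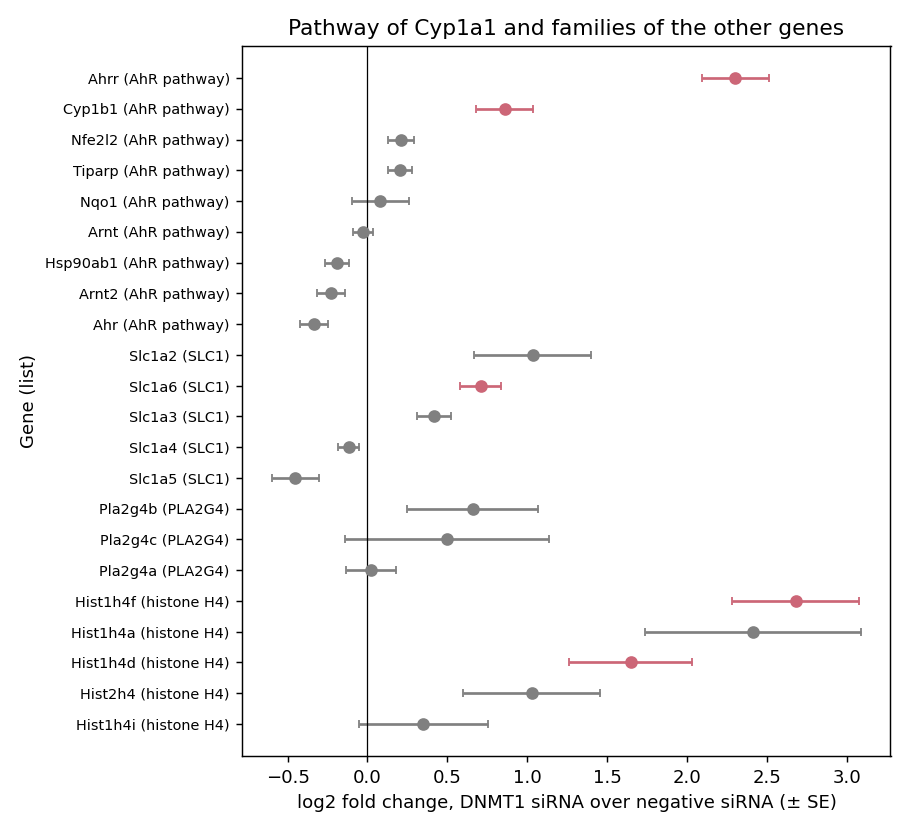
Log2 fold change of DNMT1 siRNA over negative siRNA (x axis) for the tested genes of the aryl hydrocarbon receptor (AhR) pathway and of the SLC1, PLA2G4 and histone H4 families; points are edgeR estimates, bars are ± SE, and red marks genes called up. Ahrr at 2.30 and Hist1h4f at 2.68 lie farthest to the right of the called genes, and 0 of the PLA2G4 genes is called.

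Within 100 kb of the 4 genes lay 20 genes, of which 12 were tested, and 0 were called up or down by edgeR or DESeq2, with 4 at an unadjusted p under 0.05 and a median log2 fold change of 0.08. Over all genes tested, 4.26% were called up, 2.23% down and 29.2% had an unadjusted p under 0.05, so these counts do not set the neighbours apart. H2afj, a histone H2A variant gene 3829 bases from Hist4h4, was at 0.41 (adjusted p = 0.0250 in edgeR) and Csk, a kinase gene near Cyp1a1, at −0.35 (adjusted p = 0.0302 in edgeR), both under the fold limit. Cyp1a2 lies 4225 bases from Cyp1a1 and had too few reads to be tested. This distance is between the gene starts of the annotation, and the RefSeq start of Cyp1a1 used for its promoter lies farther from Cyp1a2.

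Of the 4 genes, 0 were on any of 7 lists of genes typical of other tissues or programs. Among all silent genes, 298 of 4856, or 6.14%, reached 0.3 CPM in at least 1 DNMT1 siRNA sample and 0.0824% in all 3, so few or no genes per list would do so in all. Of 38 germline genes, a class known to be held silent by methylation, 18 were silent, and 2 of these, Tuba3a and Sohlh2, reached 0.3 CPM in 1 DNMT1 siRNA sample and 0 in more. Of the 11 germline genes tested, 0 were called by edgeR or DESeq2, 0 had an unadjusted p under 0.05, and the median log2 fold change was −0.06. Among the neuronal genes, 4 of 12 silent ones reached the limit in 1 sample, among them Stmn2, Gad1 and Gad2. Among the liver and gut genes, 2 of 11 did (Apoa2 and Hnf4a), and the epithelial regulator Esrp1 did so in 2 samples. No silent gene of the striated muscle or the blood and immune list reached it. Of the genes on these lists with enough reads, 6 of 13 striated muscle genes were called up, among them Ckm and Casq2, with a median of 1.18. Also called up by edgeR were 2 of 5 neuronal, 2 of 8 epithelial and 2 of 2 liver and gut genes, while DESeq2 called up 2, 3 and 1. The called epithelial gene Trp63 had at most 0.2 CPM in every negative siRNA sample. It could pass the filter on low counts only through the DNMT1 siRNA samples. Genes so low were partly selected for a higher level after DNMT1 siRNA, so these numbers are no support for any list. The whole liver and gut list summed to only 0.933 to 1.59 CPM after negative siRNA. Of 14 interferon-stimulated genes, 5 were called down by edgeR and 10 by DESeq2, with a median of −1.54. Their summed levels overlapped, at 342 to 1082 CPM after negative siRNA and 310 to 380 CPM after DNMT1 siRNA. Over all genes tested, 4.26% were called up and 2.23% down.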

How the data were processed

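RNA was measured by single-end RNA-Seq in 3 negative siRNA and 3 DNMT1 siRNA samples of mouse cardiomyocytes. Per the labels and the study's methods, the authors checked reads with FastQC, aligned them with TopHat2 to mm10 (GRCm38) and deposited HTSeq read counts per Ensembl gene; tool versions and the strand setting are not given in the sources used here. Gene types, positions and exon lengths came from GENCODE M21 (GRCm38), which held 42548 of the 43629 genes. CPM is a count per 1000000 of the sum of all gene counts, without the HTSeq summary rows (reads outside exons are given in the report). Tests used edgeR 4.0.16 (R 4.3.3; filterByExpr, TMM, glmQLFit and glmQLFTest, Benjamini-Hochberg adjustment) on the counts of all genes in a two-group design, checked on simulated counts, and DESeq2 1.42.0 as an alternative. A call needed an adjusted p under 0.05 and a fold change above 1.5. Ratios and count intervals are exact and cover counting error only. They leave out the spread between samples and the choice of the 4 genes on these reads. Every pair of replicates differed beyond sampling noise (chi-square per degree of freedom of 2.70 or more). Promoters are from RefSeq, and Hist4h4 was matched through its synonym. All 4 genes are named, with the 3 nearest genes inside and outside each limit and calls of their families. The genes and lists were chosen with earlier results of these data known, and the aryl hydrocarbon receptor list and the families after the 4 genes were. A few listed genes are not reported here.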

Additional observations from a re-analysis of the deposited data

How the results depend on the processing

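The choice of genes rested on few reads and moved with its limits. With limits of 0.05 and 0.3 CPM the rule named 2 genes (Cyp1a1 and Hist4h4), with 0.1 and 0.5 CPM 1 gene (Cyp1a1) and with 0.2 and 0.3 CPM 19 genes. Without 1 sample it named 5 to 49 genes, most without DNMT1 siRNA replicate 1 (49) and otherwise without DNMT1 siRNA replicate 3 (9), negative siRNA replicate 2 (8) or negative siRNA replicate 3 (8). With DNMT1 siRNA replicates 2 and 3 both left out it named 13, and with negative siRNA replicate 2 and DNMT1 siRNA replicate 1 both left out 62; these last choices were made after seeing the data. TMM-scaled CPM named 4, and leaving out genes that overlap another named 3. Without the filter on low counts, edgeR called 994 genes up and 701 down in place of 659 and 345, 3 of the 4 genes in place of 1, and 1 neighbour (Gucy2c) in place of 0. DESeq2 gave no adjusted p for the 4 genes, so it has no count for them. Leaving out 1 sample gave 255 to 823 genes up and 112 to 472 down, with the lower counts without DNMT1 siRNA replicate 1, 2 or 3 (316, 255 and 314 up; 146, 112 and 145 down). Alternatives were run only on genes called up: Cyp1a1, Ahrr, Cyp1b1, Slc1a6, Hist1h4f and Hist1h4d. Of these alternatives, 47 kept the call and 12 lost it, and no direction turned. Cyp1a1 was chosen on this contrast, and Hist1h4f and Hist1h4d were partly selected for a higher level after DNMT1 siRNA. The kept calls of these genes are therefore no support. Same-numbered samples of the groups did not deviate together (correlations 0.00637, −0.0208 and 0.0274). With the replicate number as a block, edgeR called 513 genes up and 285 down, and the call of Hist1h4d was lost (adjusted p = 0.0590 in edgeR). With reads aligned to several places in the denominator, the difference in reads outside exons was 4.74 in place of 12.9 percentage points. At 0.3 CPM a gene has about 5 reads, so smaller gains were not detectable at this depth.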

Other observations

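Among genes of other types, 1 met the same limits, the long non-coding RNA gene Tslrn1 (chrX:62510539-62527011, GRCm38). It had 3, 3 and 2 reads after negative siRNA and 7, 14 and 6 reads after DNMT1 siRNA. The 15 genes that a lower limit of 0.2 CPM added included Gcgr, Trp63, Sult2b1 and the histone gene Hist1h4f. Trp63 encodes the epithelial transcription factor p63, and Sult2b1 a sulfotransferase. These genes were singled out after their values were seen. Gcgr differed by 3.02 on the log2 scale (SE 0.40, with an adjusted p of 0.004 in edgeR). With 4, 2 and 3 reads after negative siRNA, Gcgr passed the filter on low counts only through the DNMT1 siRNA samples. The relaxed limit used the same contrast, so these values are a description and not a test.

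The 13 silent genes that reached 0.3 CPM in DNMT1 siRNA replicate 1, where the silent genes as a whole were lowest, were the 4 genes with Sprr2f, Cldn11, Cd226, Pdzd3, Myo3b, Hepacam, Zfp993, Hs3st5 and Cldn2.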
